A study of Mus musculus with 4 samples.

Results

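The locus described here is the stretch of mouse chromosome 14 that holds Adam7, Adamdec1 and Adam28, with the neurofilament genes Nefm and Nefl below it and further flanks on both sides. Its members are the windows of 100 kb, spaced 25 kb apart, that start between 67000001 and 70500001 in the GRCm38 build. There are 141 such windows among the 109033 of the whole table, and 127 of them have a value in all 4 libraries. The locus was chosen by these same polarity values, for the difference between the genotypes, so that difference is given as a description. Counts from a fit across the genome are printed for it, and nothing is supported with them.

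The assay was TrAEL-seq, a sequencing method that reads DNA from its free 3′ ends, in mouse embryonic stem cells of the line labelled 129S6/SvEvTac. Wild-type (WT) cells gave 2 libraries, and Snf2h knockout (KO) cells gave the other 2. The labels say that cells of each genotype were cultured in duplicate, with the same serum and LIF medium, and they name neither a knockout clone nor a treatment. Whether the libraries of a genotype came from separately derived lines is not stated, so the spread between them may be technical. The column of WT replicate 2 carries a different index sequence from its label, and its genotype and replicate number are the same in both. Because genomic DNA was read, expression of Snf2h and of stem cell markers was not analysed here.

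Each value is the signed imbalance between the strands on which 3′ ends were captured, in points from -50 to 50, and is called polarity here. When forks moving one way dominate in a window, polarity lies far from 0, and where both directions are equally common it is near 0. A stretch where forks diverge from initiation sites and a stretch where forks meet both appear as a change of sign, in opposite senses. Which strand was counted as positive is not stated, so changes of sign are described only as rising or falling with increasing coordinate. Snf2h is the ATPase of the ISWI remodelling complexes, which slide and space nucleosomes and have been linked to replication through chromatin. The table holds no read counts, so depth is unknown and no counting interval can be given.

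Over the autosomes, KO replicate 1 had the widest profile, with an SD of polarity of 19.5 points against 14.6 and 12.8 points in the WT libraries and 14.5 points in KO replicate 2. Values of KO replicate 1 can therefore lie farther from 0 at any place, and results are also given with each library divided by its own SD where that mattered. In the locus, 13 windows had no value in any library and 1 more, from 69250001, had none in either KO library. These 14 windows are neighbours, and Entpd4, Gm16867, Gm21451, LOC115488278 and Entpd4b, protein-coding genes of RefSeq, lie in them. The missing share was 9.22% in each WT library and 9.93% in each KO library, against 3.37% to 3.75% over the autosomes.

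In wild-type cells polarity fell from the neurofilament genes towards Adam7, stayed at a low positive level over Adam7 and Adamdec1, and fell again from Adam28 onwards, with a single change of sign beyond Adam28. In Snf2h KO cells the same stretch held a fall, a steep rise at the lower end of Adam28 and a second fall, with 3 changes of sign. At Adam7 the KO libraries lay more than 30 points below WT, and 0.3 Mb farther on they lay about as far above it. Polarity at Nefl and Nefm, which encode the light and medium subunits of the neurofilaments of nerve cells, overlapped between the genotypes. The plot of the 4 profiles shows this course.

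**Figure D1:**
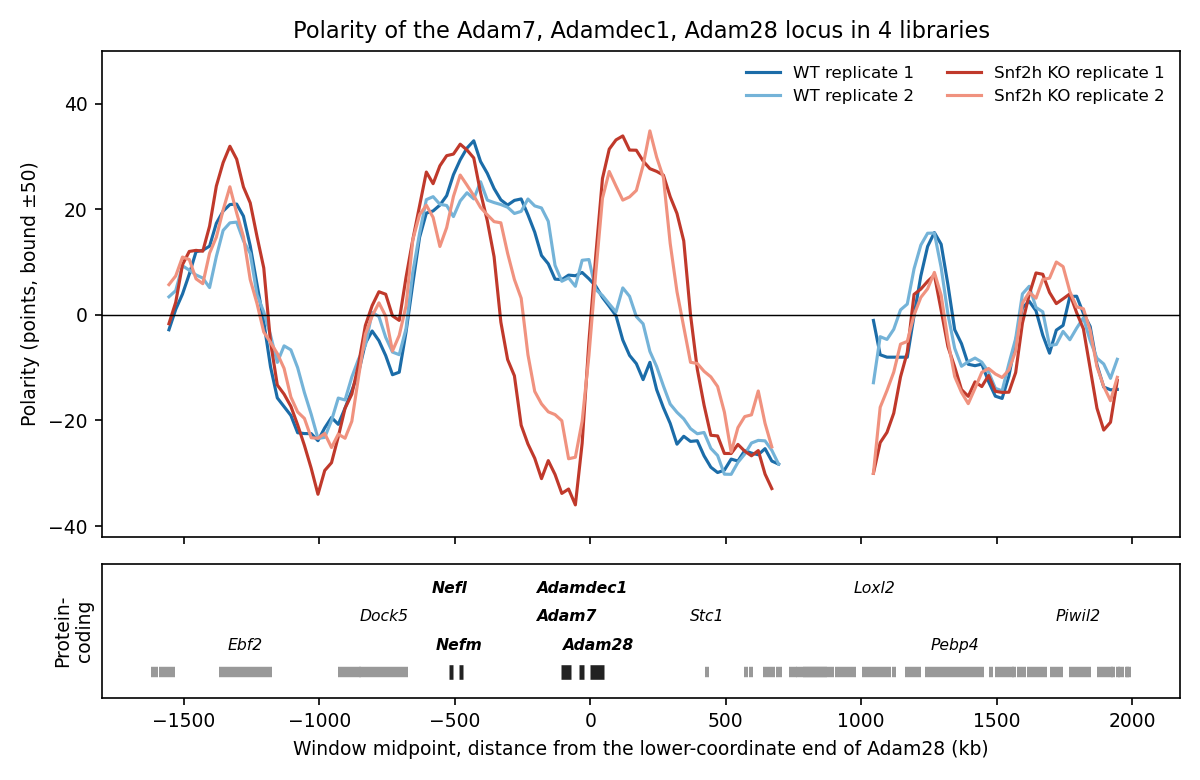
Polarity in points (y axis, bound ±50) of all 141 windows against the distance of the window midpoint from the lower-coordinate end of Adam28 in kb (x axis), as a line for each of 2 WT (blue) and 2 Snf2h KO (red) libraries; lines break where a window has no value. Bars below mark RefSeq protein-coding genes, the 5 member genes in black and bold type. All 4 lines run together on the left, part between Nefm and Stc1, where only the KO lines swing down and up again, and come back together before the gap.

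The profile below the changed stretch was alike in all libraries. It rose to a peak inside Ebf2, which encodes a transcription factor of adipocyte and neuronal precursors. At the window from 67225001, polarity was 20.9 and 17.4 points in WT replicates 1 and 2 and 31.9 and 24.2 points in KO replicates 1 and 2. Here the KO values were both above WT, by 8.93 points on average. A fall followed, and the smoothed profile (a running mean of 5 windows) crossed 0 at 67394125 and 67404416 in WT and at 67418266 and 67392112 in KO. All 4 positions lie inside Ebf2 (67233292 to 67430952). The trough between Ebf2 and Cdca2, a regulator of mitotic chromatin, was reached at 67575000 and 67625000 in WT and at 67600000 and 67650000 in KO. Its depth was -22.5 and -20.2 points in WT against -29.0 and -23.4 points in KO. Divided by each library's own SD the depths overlapped, at -1.54 and -1.58 in WT against -1.49 and -1.61 in KO.

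Polarity then rose through Dock5, a gene for an activator of the small GTPase Rac, towards the neurofilament genes. The smoothed rise crossed 0 at 67929008 and 67917049 in WT and at 67803539 and 67889735 in KO, so both KO libraries crossed earlier. In the window nearest the middle of Dock5, from 67800001, polarity was -7.72 and -4.27 points in WT against 3.90 and -0.246 points in KO. The groups did not overlap there, with a difference of 7.82 points, and they were apart in the same direction in 7 windows in a row, from 67775001 to 68025000. Gnrh1, the gene for gonadotropin-releasing hormone, lies just below Dock5. In the window nearest its middle the values overlapped, with -10.9 and -8.35 points in WT against -9.29 and -11.7 points in KO. Of the 4 windows over it, 3 separated the genotypes, in both directions, with differences between -4.52 and 2.76 points. KO was below WT in 4 windows in a row from 67600001 to 67775000, over Cdca2, Kctd9 and Gnrh1, with a mean difference of -4.90 points.

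Nefl, at 68083863 to 68089095, and Nefm, at 68119545 to 68125004, lay on the plateau above this rise. In the window nearest the middle of Nefl, polarity was 22.6 and 20.7 points in WT against 30.1 and 16.5 points in KO. KO replicate 1 was thus the highest and KO replicate 2 the lowest of the 4. At Nefm it was 29.3 and 21.6 points in WT against 32.3 and 26.5 points in KO. The difference of 3.94 points was below the pooled replicate SD of 4.87 points. None of the 4 windows over Nefl and none of the 5 over Nefm separated the genotypes. Each library was also standardised, by subtracting its autosomal mean and dividing by its own SD. The differences at Nefl and Nefm then turned to -0.234 and -0.101 SD, so they have no settled direction.

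The highest window of the WT mean profile, from 68125001, follows at once and overlaps Nefm. Its polarity was 33.0 and 22.0 points in WT against 29.7 and 22.6 points in KO. In the smoothed profiles this summit lay at 68175000 in both WT libraries and at 68125000 and 68150000 in KO. Up to here the genotypes shared the shape of their course. Across the 46 windows below the changed stretch the KO minus WT difference had an SD of 4.04 points and lay between -6.84 and 8.93 points. The genotypes did not overlap in 17 of them (37.0%, against 44.6% of all autosomal windows). Over all 46 windows Pearson's r between libraries of different genotype was 0.955 to 0.969, and that within genotypes was 0.965 and 0.967. Neighbouring windows share reads, so these correlations are descriptions only.

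From 68150001 onwards the KO libraries lay below WT. In the window from 68200001, which holds no protein-coding gene, polarity was 23.9 and 21.3 points in WT against 11.0 and 17.6 points in KO. KO replicate 1 left the WT course first. In the window from 68300001 it was at -20.9 points while KO replicate 2 was still at 3.14 points, and WT was at 21.9 and 19.6 points. Smoothed KO polarity crossed 0 at 68279792 in replicate 1 and at 68349545 in replicate 2, both in a stretch without a gene of the RefSeq table, between 68167074 and 68436478. WT stayed above 0 there.

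The largest negative difference of the locus, -39.7 points, fell in the window from 68375001, just below Adam7. It holds the lncRNA genes Gm41190 and Gm31227 and no protein-coding gene. WT libraries had 11.2 and 20.2 points there and KO libraries had -31.0 and -16.9 points. The libraries of each genotype differed from each other, but the nearest WT and KO values, 11.2 and -16.9 points, had opposite signs. Among all 94694 overlapping autosomal windows with 4 values, its absolute difference ranked 4.

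The letters at the start of Gm31227 are shown because it is the only gene between 68150001 and 69200000, of 18 listed there, whose promoter the RefSeq sequence table (GRCm38.p6) held. None of the 5 member genes matched that table. The 250 bases before its start lie at chr14:68437168-68437417 on the plus strand, with CG dinucleotides in capitals:
Gm31227 promoter: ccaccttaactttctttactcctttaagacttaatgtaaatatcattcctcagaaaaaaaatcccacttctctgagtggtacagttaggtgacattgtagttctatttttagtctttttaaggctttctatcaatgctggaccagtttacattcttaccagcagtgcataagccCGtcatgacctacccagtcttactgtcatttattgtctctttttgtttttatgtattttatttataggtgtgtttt
It contains 1 CG dinucleotide and 34% G and C. Of 31396 promoter entries cut to the same length, 18.5% had as few CG dinucleotides, and the medians over all entries were 6 CG dinucleotides and 52.4% G and C. A window of 100 kb is far longer than a promoter, so the polarity values do not resolve it.

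Adam7, at 68497336 to 68533689, belongs to the ADAM family of membrane-anchored metalloproteases and encodes a protein of the epididymis without protease activity. In the window nearest its middle, from 68475001, polarity was 7.52 and 6.99 points in WT against -33.0 and -27.2 points in KO. The WT libraries thus differed by less than 1 point, and both KO libraries had the opposite sign. The difference was -37.4 points, with a pooled replicate SD of 2.88 points. Over the windows that overlap Adam7 that SD lay between 2.38 and 6.88 points. All 6 windows that overlap Adam7 separated the genotypes, with differences between -37.9 and -31.4 points.

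Adamdec1, at 68563387 to 68582072, encodes a secreted relative of the ADAM proteases found in immune and gut tissue. The window nearest its middle, from 68525001, had 8.02 and 10.3 points in WT against -24.3 and -20.2 points in KO. Again the 2 genotypes lay on opposite sides of 0, and the difference was -31.4 points with a pooled replicate SD of 2.38 points. The 5 windows over this gene already spanned the turn, since their differences ran from -37.9 to 4.25 points. The lowest window of the KO mean profile, from 68500001, overlaps both Adam7 and Adamdec1, and had 7.40 and 5.40 points in WT against -36.0 and -27.0 points in KO.

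Adam28, at 68604998 to 68655889, encodes a membrane metalloprotease of lymphocytes and lay on the rise that was seen in KO only. In the window nearest its middle, from 68575001, polarity was 5.45 and 4.80 points in WT against 11.0 and 7.73 points in KO. The groups were close there, with a difference of 4.25 points, which was 2.61 points without KO replicate 1. Over the 6 windows that overlap it, the difference went from -31.4 to 28.6 points. Smoothed KO polarity crossed 0 at 68610609 in replicate 1 and at 68611576 in replicate 2, both inside Adam28 near its lower end. In the last window that overlaps it, from 68650001, the KO libraries had reached 33.1 and 24.4 points while WT had -0.166 and 0.538 points.

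**Figure D2:**
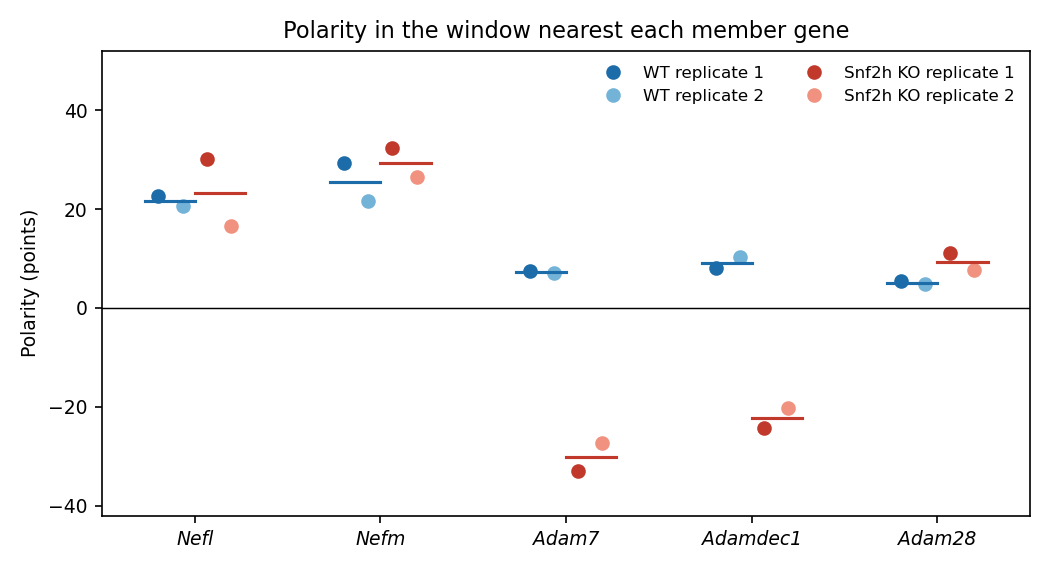
Polarity in points (y axis) in the window nearest the middle of each member gene (x axis, in genome order), with a dot for each of the 2 WT (blue) and 2 Snf2h KO (red) libraries and a bar at the mean of each genotype. Dots of the genotypes overlap at Nefl and Nefm, lie on opposite sides of 0 at Adam7 and Adamdec1, and are close together at Adam28.

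Set in order, the genes ran in WT from Nefm (25.5 ± 5.51 points, SD, n = 2) and Nefl (21.6 ± 1.32 points) to Adamdec1 (9.18 ± 1.63 points), Adam7 (7.26 ± 0.374 points) and Adam28 (5.13 ± 0.464 points). Nefm and Nefl overlapped each other in WT. In KO the order was Nefm (29.4 ± 4.13 points), Nefl (23.3 ± 9.63 points), Adam28 (9.38 ± 2.33 points), Adamdec1 (-22.2 ± 2.95 points) and Adam7 (-30.1 ± 4.05 points). Nefm and Nefl overlapped each other in KO as well, at 32.3 and 26.5 against 30.1 and 16.5 points. Adamdec1 and Adam7 did not overlap in KO, at -24.3 and -20.2 against -33.0 and -27.2 points. Windows of neighbouring genes overlap in these comparisons, so they are not independent of each other.

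The step at Adam28 was measured between 2 windows that do not overlap, from 68500001 and from 68600001. Over these 100 kb polarity changed by -4.11 and -1.75 points in WT and by 61.8 and 49.0 points in KO. The KO lines rose steeply and the WT lines drifted slightly down. This was the steepest rise over 100 kb in the locus for both KO libraries. In WT the steepest rise of the locus lay elsewhere, between the windows from 67850001 and 67950001 at the upper end of Dock5, with 30.1 and 29.4 points. Of 94254 such pairs on the autosomes, 14 rose at least as much in the KO mean, this pair included, and in 2 the KO and WT changes differed by at least as much.

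Beyond Adam28 the KO libraries stayed high while WT kept falling. The window from 68775001 was the highest of the KO mean profile, with -8.99 and -6.92 points in WT against 27.7 and 34.8 points in KO. KO polarity peaked at 68725000 in replicate 1 and at 68825000 in replicate 2 in the smoothed profiles. The largest difference, 41.7 points, came in the window from 68825001, which overlaps a lncRNA gene, Gm31281, and a pseudogene, Gm47256. WT had -17.6 and -13.5 points there, and KO had 26.4 and 26.0 points, so the KO libraries nearly coincided. No autosomal window of the table had a larger absolute difference. WT polarity had crossed 0 at 68685321 in replicate 1 and at 68773837 in replicate 2, between Adam28 and Gm31281.

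The second KO fall led down to Stc1, which encodes the secreted glycoprotein stanniocalcin. Smoothed KO polarity crossed 0 at 68978451 and 68948190, below that gene. From the window at 68775001 to that at 69050001 it changed by -20.4 and -23.3 points in WT and by -53.9 and -53.2 points in KO. At Stc1, in the window from 68975001, polarity was -26.7 and -22.3 points in WT against -17.1 and -10.7 points in KO. KO was still higher, by 10.6 points, but all libraries were below 0. At Nkx2-6, a homeobox gene, the values overlapped again, with -25.7 and -26.4 points in WT against -25.8 and -19.3 points in KO.

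From end to end, the stretch had a similar total change in both genotypes. Between the windows from 68125001 and 69050001, 925 kb apart, polarity changed by -62.4 and -52.1 points in WT and by -56.0 and -41.0 points in KO. The libraries of the genotypes overlapped in this total. In WT it came as a fall of the mean from 27.5 points at 68125001 to 8.06 points at 68425001, a level part that still stood at 8.65 points at 68550001, and a further fall to -29.8 points. In KO a change of -65.7 and -49.5 points to the window from 68500001 was followed by the rise described above and the second fall.

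The extent of the change was read from unbroken runs of windows in which the KO libraries were both higher, or both lower, than either WT library. KO was below WT in 17 windows in a row, from 68150001 to 68650000 (500 kb), by 26.1 points on average. KO was above WT in 22 windows in a row, from 68575001 to 69200000 (625 kb), by 22.8 points on average. The runs adjoin, since their windows overlap in genome space, and together they cover 1050 kb with 6 protein-coding genes, among them Adam7, Adamdec1, Adam28, Stc1 and Nkx2-6. That is 5.71 protein-coding genes per Mb, against 12.5 in the locus from 67000001 on and 8.39 over the autosomes. With a gap of at least 5 points required between the groups, the runs were 13 and 16 windows long.

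**Figure D3:**
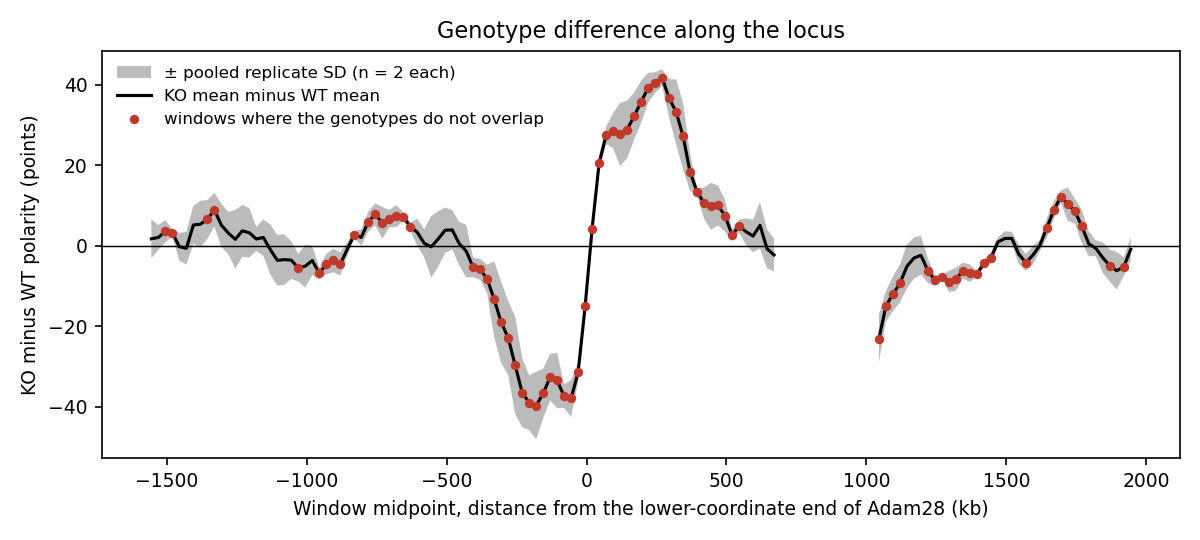
KO mean minus WT mean polarity in points (y axis) against the distance of the window midpoint from the lower-coordinate end of Adam28 in kb (x axis). The black line is the difference, the grey band is ± the pooled replicate SD (n = 2 per genotype), and red dots mark windows in which the genotypes do not overlap. The difference dips to -39.7 points, passes through 0 at Adam28 and reaches 41.7 points, and stays between -6.84 and 8.93 points to the left of the dip.

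Separation by itself is common in this table, because 44.6% of autosomal windows had KO on a single side of WT (22.2% above and 22.5% below). In the locus it was 79 of 127 windows, 40 above and 39 below. Of its 127 windows, 16 had a difference over 30 points, all of them in the 39 windows of the adjoining runs, against 0.0285% of all autosomal windows, and 25 were over 20 points, against 0.336%. The autosomes held 27 windows over 30 points in all. Both KO libraries had the opposite sign to both WT libraries in 23 of the 127 windows, 17 of them in the adjoining runs, against 4.24% over the autosomes. All of this rests on the contrast by which the locus was picked.

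Unbroken runs on the autosomes numbered 13016, with a median of 2 windows. The run above WT had 22 windows, and 21 runs were at least that long, itself included. The run below WT had 17 windows, and 80 runs were at least that long. When length was multiplied by the mean difference, these runs ranked 2 and 3 of all. The run ranked 1 lies on chromosome 4, from 23600001 to 24275000 (675 kb), with KO above WT by 21.7 points on average, close in length and size to the run of 625 kb. It too adjoins a run with KO below WT, from 23050001 to 23625000 (575 kb), by 17.8 points on average. The longest run of all, on chromosome 9, spans 825 kb. The plot of run length against mean difference shows all runs.

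**Figure D4:**
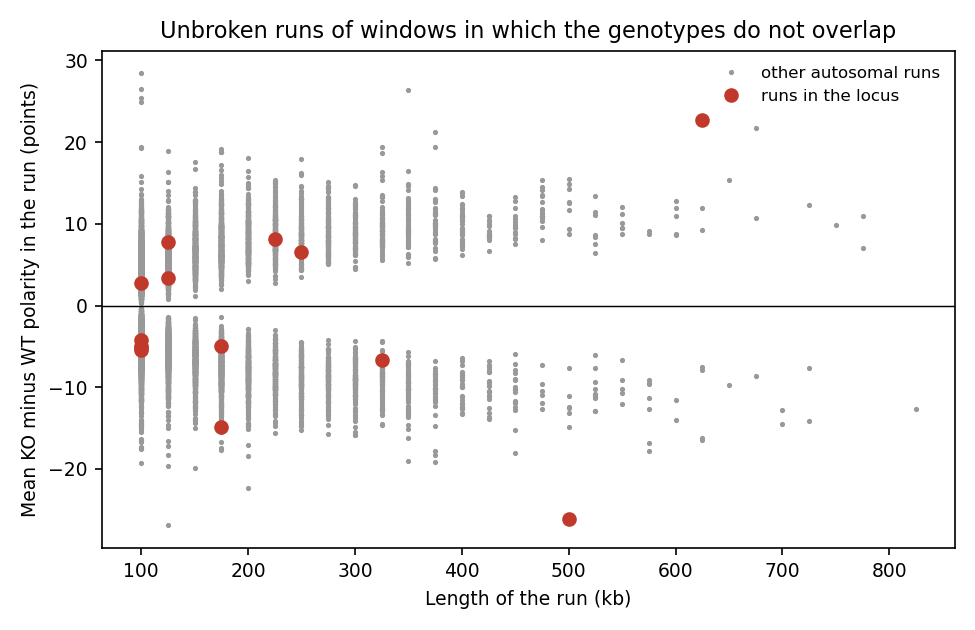
Mean KO minus WT polarity in points (y axis) of each unbroken run of autosomal windows in which the genotypes do not overlap, against the length of the run in kb (x axis); red dots are the runs that start in the locus and grey dots all other runs. The runs of 500 and 625 kb at -26.1 and 22.8 points lie at the outer edge, the former with no other run near it and the latter beside the chromosome 4 run of 675 kb at 21.7 points. The remaining runs of the locus lie among the grey dots.

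Over the 39 windows of the adjoining runs, which hold the separated windows by construction, Pearson's r was 0.976 within WT and 0.922 within KO, and it was -0.0729 to 0.185 between libraries of different genotype. Over all 94694 autosomal windows the values between genotypes were 0.864 to 0.917. Compared with 657 other autosomal stretches of 141 windows, the mean absolute difference of the locus, 10.6 points, was exceeded by 1 stretch, and the median stretch had 5.08 points. The SD of the difference over the locus was 2.45 times that over all autosomal windows, and this ratio was 1.20 with the median absolute difference in place of the SD.

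The difference of each window was also fitted across the genome with limma (23672 autosomal windows at 100 kb spacing, Benjamini-Hochberg adjusted p under 0.05). In the locus 4 of 33 tested windows were called, those from 68400001 and 68500001 lower and those from 68700001 and 68800001 higher in KO. Over all windows 0.0549% were called, 0.0338% higher and 0.0211% lower in KO, and nothing is read from this comparison, since the locus was chosen from it. The count was 9 without KO replicate 1 (5.79% of all windows) and 9 without KO replicate 2 (20.2%). It was 3 without WT replicate 1 (0.0338%) and 4 without WT replicate 2 (0.0296%). With the replicate number as a block it was 8 (2.66%), and with each library standardised as well 9 (3.62%). Standardising alone gave 7 (0.372%), limma's trend and robust options 8 (1.28%), and an adjusted p under 0.1 gave 8 (0.228%). Of the 127 overlapping windows 20 were called (0.076%), and the grids shifted by 25, 50 and 75 kb gave 6, 5 and 5 (0.0676%, 0.101% and 0.0887%). On an atanh scale limma called 0 (0.0% of all windows), with 8 of the 33 at an unadjusted p-value under 0.05, against 11.2% of all windows.

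Above the adjoining runs, on both sides of the gap in the table, differences were smaller, with an SD of 6.78 points over 42 windows against 27.6 points over the 39 windows of the adjoining runs. Loxl2, which encodes a lysyl oxidase of the extracellular matrix, lies at the edge of the gap. Its window from 69600001 had -1.06 and -12.9 points in WT and -30 points in each KO library. The WT libraries differed widely there, and the difference of -23.0 points changed to -17.1 without WT replicate 1 and to -28.9 without WT replicate 2. Chmp7, of the ESCRT membrane-remodelling machinery, had -8.02 and -2.74 points in WT against -18.6 and -10.8 points in KO in the window from 69675001. KO was lower in each of the first 4 windows after the gap. These windows overlap one another, so they are not independent. The window from 69575001 to 69675000, which covers most of the first of them, had no value in any library. The first value may therefore rest on few reads, which cannot be checked without counts.

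Pebp4, a gene of the phosphatidylethanolamine-binding family, lay under a small peak at 69825001 to 69925000. Polarity there was 15.6 and 15.5 points in WT against 7.54 and 8.04 points in KO. The peak was lower in both KO libraries, and KO stayed below WT in 10 windows in a row, from 69775001 to 70100000, by 6.72 points on average. For this reason the WT profiles crossed 0 on both sides of it (rising at 69795023 and 69741638, falling at 69951567 and 69933701), whereas the smoothed KO profiles did not reach the 5 points that a crossing required on its positive side. Without the running mean, or with a margin of 0, the KO mean had 4 crossings above the gap in place of 2, so this contrast depends on the smoothing and the margin.

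Farther up, the KO libraries were higher in 6 windows in a row, from 70200001 to 70425000, by 8.20 points on average. At Ppp3cc, the gene for a catalytic subunit of calcineurin, polarity was 0.763 and 1.40 points in WT against 7.93 and 3.15 points in KO. At Slc39a14, a zinc and manganese transporter, it was -2.89 and -5.61 points in WT against 2.13 and 10.0 points in KO. The genotypes had opposite signs at Slc39a14, though all values were small. KO profiles crossed 0 upwards at 70217193 and 70211168 and downwards at 70389029 and 70417483, and WT profiles did not cross by 5 points there. At Piwil2, a germ-line gene of the piRNA pathway, the values overlapped, with 3.52 and -2.53 points in WT against 0.407 and 1.52 points in KO.

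Altogether the smoothed profiles crossed 0 by at least 5 points 5 times in each WT library and 7 times in each KO library. The mean profiles of the genotypes gave the same totals, and other smoothing and margins were tried on these mean profiles only. In them the 3 KO crossings between 68150001 and 69200000, and the single WT crossing there, were found under every smoothing and margin tried. With a running mean of 9 windows the totals were 5 in both genotypes, because the KO crossings between 70211168 and 70417483 no longer counted. Without a running mean the totals were 5 in WT and 9 in KO, and with a margin of 0 they were 7 and 9. With a margin of 10 points the same KO crossings were lost, and the totals were 4 in WT and 5 in KO. The rising KO crossing inside Adam28 was found under each of these settings, between 68610157 and 68611812.

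At the ends of the locus the differences were small. Just inside the lower end, at 67000001, polarity was -2.83 and 3.41 points in WT against -1.68 and 5.72 points in KO. Just outside it, at 66975001, it was -0.320 and 5.50 points in WT against -1.21 and -1.55 points in KO, so KO was lower there by 3.97 points on average. Just inside the upper end, at 70500001, it was -14.1 and -8.42 points in WT against -12.4 and -11.8 points in KO. Just outside, at 70525001, it was -9.40 and -4.60 points in WT against -2.87 and -6.05 points in KO.

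Other genes of the same families were examined at their own places in the genome. The 31 other ADAM genes lie in 27 windows of the 100 kb grid, several of them in clusters on chromosome 8 that share a window. None was called in limma (count 0 of 31, lowest adjusted p = 0.175), against 0.0549% of all windows, and a count of 0 is near that share. Of the genes, 6 had an unadjusted p-value under 0.05, against 12.2% of all windows. Their median absolute difference was 6.66 points, against 4.44 points over all windows at 100 kb spacing, and the genotypes did not overlap at 15 genes (8 above and 7 below in KO, against 44.7% of all windows). The largest difference, 15.9 points, was shared by Adam20 and Adam25, testis-expressed ADAM genes in the same window, with -0.568 and 0.625 points in WT against 16.2 and 15.7 points in KO. Adam19, which acts in heart development, had 12.6 and 7.95 points in WT against 25.3 and 21.3 points in KO.

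The 8 other intermediate filament genes, among them Nefh for the heavy neurofilament subunit, showed smaller values. None was called (count 0 in limma, with 0 at an unadjusted p-value under 0.05, against 0.0549% and 12.2% of all windows), and with 8 genes a count of 0 is near those shares. The genotypes did not overlap at 4 of the 8, against 44.7% of all windows, and the median absolute difference was 3.08 points. The largest was at Des, the gene for desmin of muscle, with -5.81 and -5.72 points in WT against -18.2 and -11.5 points in KO. At Nefh polarity was 5.52 and 4.91 points in WT against 0.725 and -3.80 points in KO.

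The profile around Adam7 was finally set beside that of 18942 other protein-coding genes, by the root mean square distance over 41 windows and 4 libraries centred on each gene. The median gene lay 25.5 points away. The nearest, at least 2 Mb apart, were the olfactory receptor gene Olfr25 on chromosome 9 (12.9 points), Gm8882 on chromosome 6 (13.7 points), the vomeronasal receptor gene Vmn2r95 on chromosome 17 (13.9 points), the adhesion receptor gene Adgrg6 on chromosome 10 (14.5 points) and Rassf8 on chromosome 6 (14.6 points). At the centre of these profiles the KO minus WT difference was -9.05, -14.3, -18.8, -15.0 and -4.29 points, smaller in each than the -37.4 points at Adam7.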

How the data were processed

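Per the submitters' processing notes, the authors used Trim Galore 0.6.5 and Bowtie2 2.4.1 with GRCm38. Per the file headers, reads were aligned to GRCm38 with an rRNA sequence and deduplicated, each library on its own. What was deposited is a score per window and library, a signed strand imbalance between -50 and 50; the program, the positive strand and any read minimum are not given in the sources used here. All 4 columns of values were used.

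Summaries used full-length autosomal windows with a value in all 4 libraries. KO was compared with WT on windows spaced 100 kb with lmFit and eBayes of limma 3.58.1, run in R 4.3.3. Crossings of 0 were read from a running mean of 5 windows that reached 5 points on both sides, and turning points from reversals of 10 points. Replicate spread is the SD between libraries (n = 2), and the pooled SD covers both genotypes. Windows named are those with the largest differences that do not overlap, the highest and lowest of each mean profile, those at the ends and those nearest each gene's middle; other windows named were chosen after their values were seen. Genes are those of a RefSeq table of GRCm38.p6. The member windows, genes and lists were chosen with earlier results of these data known. On simulated windows with 200 of 23672 shifted by 30 points, limma recovered 196 and made 13 false calls. The simulated noise came from limma's own fitted model, with the same spread in all 4 libraries of a window. It therefore does not show how reliable the calls on these data are. Summaries used pandas 2.3.3 and numpy 2.4.6 in Python 3.11.15, and plots matplotlib 3.10.9. The result for 1 gene is not reported here.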

Additional observations from a re-analysis of the deposited data

How the results depend on the processing

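The number of windows called in the locus was 4 of 33 in limma. It was 20 of 127 over overlapping windows, 7 with each library standardised, 8 with limma's trend and robust options, 8 at an adjusted p under 0.1, 8 with the replicate block and 9 with the replicate block and standardising. After an atanh transform limma called 0, and 8 of the 33 had p under 0.05 before adjustment, against 11.2% of all windows. It was 5 or 6 on the other 100 kb grids and 3 to 9 with a library left out. The labels do not say what a shared replicate number marks, and with 2 pairs it was not taken as a pairing. Deviations of same-numbered libraries correlated at 0.241 over 23672 windows, and the block raised the calls over all windows from 13 to 630. The relative spread of the difference, 2.45, was 2.68 after standardising, 2.07 as the mean of same-numbered pairs (replicate block, chosen after seeing the data), 2.08 to 2.50 with a library left out, and 1.20 with the median absolute difference, which gives little weight to the adjoining runs because they hold 39 of the 127 windows. The causes of the other changes were not tested. The longest run was 16 to 27 windows and the run below WT 13 to 19 windows under all alternatives. Leaving out a library, or asking only for the same sign in same-numbered pairs, loosens the rule, so these alternatives could not shorten a run. Crossings of each genotype's mean profile numbered 4 to 7 in WT and 5 to 9 in KO. The 6 named windows kept their sign under all alternatives tried, and so did Adam7, Adamdec1 and Adam28. In all of these windows the genotypes did not overlap, so leaving out a library could not have changed the sign. The 6 windows were also picked for their large differences. Read depth per window is unknown, so no counting error stands beside any value, and 2 libraries per genotype limit every spread given.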
